A study of Mus musculus with 22 samples.

Results

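Spen, Ctnnd1, Cbfa2t2 and Eif4a2 are 4 genes of the mouse colon epithelium, of 5605 genes with a skipped exon event, in which the inclusion of an exon differed widely between sorted cell types. The genes were selected on exon inclusion measured in these same libraries, so the inclusion of the exons that carry the switch is given as a description, with no test. The 4 genes held 14 of the 10801 distinct events, of which Spen had 2, Ctnnd1 7, Cbfa2t2 2 and Eif4a2 3. Those events fill 53 entries over the 5 tables that set Stem beside another cell type.

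RNA was sequenced from live Epcam+, Cd31-, Cd45- cells sorted from the colons of untreated wild type C57BL/6N males aged 5-7 weeks. The sort gave 6 cell types in 22 libraries. Stem (3 libraries) had the highest Cd44 with low Cd24 and no cKit, and AbsPro, the absorptive progenitors (3 libraries), had medium to high Cd44 with low Cd24 and no cKit. SecPDG (4 libraries) is named for secretory progenitors, deep crypt secretory cells and goblet cells together. Its labels give Cd44 high with medium Cd24 and cKit, whereas the text of the study gives medium Cd44. Tuft (5 libraries) was cKit+ with high Cd24, Enterocyte (5 libraries) was Cd44 low or negative without Cd24, and EEC, the enteroendocrine cells (2 libraries), was Cd44 low or negative with Cd24. The study describes the libraries as biological replicates from independent mice and sorts, with 1 mouse per Stem and AbsPro library and several mice pooled for each library of the other cell types.

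A skipped exon is one that the splicing machinery can join into the mRNA or pass over together with both flanking introns. Where its length is a multiple of 3 the reading frame is kept, and the protein gains or loses a short segment, while other lengths shift the frame and often bring in a stop codon. Such choices are steered by RNA-binding proteins that sit on or near the exon, and they can differ between cell types of 1 tissue. Spen is a large nuclear RNA-binding protein that recruits corepressors to Notch target genes. Ctnnd1 encodes p120 catenin, which binds the juxtamembrane part of cadherins and keeps them at the cell surface. Cbfa2t2, also called Mtgr1, is a transcriptional corepressor of the ETO family. Eif4a2 is a DEAD-box RNA helicase of the translation initiation complex that also acts with the CCR4-NOT deadenylase.

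The exons that carry the switches are shown here because their length and reading frame set what each choice does to the mRNA. The sequences are the sense strand of GENCODE vM21 transcripts on GRCm38, the assembly also named mm10. In the Spen and Ctnnd1 lines capitals mark the skipped exon, with 15 bases of each neighbouring exon in lower case.
Spen 114-base exon: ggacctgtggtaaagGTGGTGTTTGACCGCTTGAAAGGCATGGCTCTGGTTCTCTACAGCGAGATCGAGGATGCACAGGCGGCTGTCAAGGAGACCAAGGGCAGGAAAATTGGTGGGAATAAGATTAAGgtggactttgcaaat
Spen 69-base exon: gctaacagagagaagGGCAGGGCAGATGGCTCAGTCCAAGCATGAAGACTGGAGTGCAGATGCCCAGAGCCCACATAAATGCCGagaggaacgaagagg
Ctnnd1 63-base exon: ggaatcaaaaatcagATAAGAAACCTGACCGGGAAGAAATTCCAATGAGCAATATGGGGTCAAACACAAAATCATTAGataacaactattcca

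The Spen 114-base exon lies at chr4:141485559-141485672 on the minus strand and is exon 9 of 15 in Spen-201. It is coding over its whole length, which is 38 codons, in 2 of the 6 annotated Spen transcripts. The Spen 69-base exon lies at chr4:141480746-141480814, is exon 11 of 16 in Spen-202 and adds 23 codons in that transcript alone. The Ctnnd1 63-base exon lies at chr2:84605184-84605246 on the minus strand, is exon 16 of 19 in Ctnnd1-209 and adds 21 codons. It was part of 21 of the 30 annotated Ctnnd1 transcripts.

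The Cbfa2t2 exon has a pair of ends in the tables. The form of 144 bases, at chr2:154500400-154500543 on the plus strand, is exon 2 of 11 in Cbfa2t2-204, is coding throughout (48 codons) and stands in 4 of the 9 annotated transcripts. The form of 140 bases ends 4 bases earlier and matched no annotated transcript. Capitals mark the 4 bases by which they differ.
Cbfa2t2 144-base exon: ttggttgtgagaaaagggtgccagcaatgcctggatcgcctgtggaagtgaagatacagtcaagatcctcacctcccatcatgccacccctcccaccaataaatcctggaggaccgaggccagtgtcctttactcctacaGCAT

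The Eif4a2 107-base exon lies at chr16:23112351-23112457 on the plus strand and is exon 11 of 12 in Eif4a2-224. It was found in 2 of the 25 annotated transcripts, of which 1 is classed as protein coding and 1 as a target of nonsense-mediated decay. Both lines start with the last 30 bases of the exon before it. With the 107-base exon the frame reaches the stop codon in capitals after 7 further coding bases, which leaves 97 bases of the exon behind the stop. Without it the frame runs on into the next exon, at chr16:23113167-23113196 for the 30 bases in capitals, which holds 142 coding bases in Eif4a2-201.
Eif4a2 with the exon: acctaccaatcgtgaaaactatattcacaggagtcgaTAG
Eif4a2 without the exon: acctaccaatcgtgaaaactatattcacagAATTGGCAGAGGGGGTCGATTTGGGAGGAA

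The length of the Eif4a2 exon is not a multiple of 3, whereas those of both Spen exons, of the Ctnnd1 63-base exon and of the Cbfa2t2 144-base exon are. Over all 10219 distinct skipped exons of the tables, 42.1% had such a length and the median length was 112 bases. Of the motifs searched on the sense strand, GGTGG (bound by Esrp proteins), TGCATG (Rbfox) and TTCTCT (Ptbp1), the Spen 114-base exon held GGTGG and TTCTCT once each. GGTGG stood in 16.0%, TGCATG in 3.28% and TTCTCT in 5.18% of the 10155 exons with a sequence. The Spen 69-base, Ctnnd1 63-base, Cbfa2t2 144-base and Eif4a2 107-base exons held none of these letters. A match of letters is a description and not a binding site.

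Inclusion is the share of transcripts that keep the exon, computed from inclusion and skipping reads, each divided by the effective length of its form. A library was given a value where it had at least 10 reads on the event. The splicing tables do not name libraries, so these are given by their place within the cell type, and a place was not matched to any column of gene counts. The Stem reads of a member's event were the same in every table that held it. Intervals in brackets are exact 95% binomial intervals of counting error alone.

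Skipping of the Spen 114-base exon was seen mainly in Stem. Inclusion in the 3 Stem libraries was 0.145 [0.0866 to 0.226] from 19 inclusion and 52 skipping reads, 0.976 [0.879 to 0.999] from 89 and 1, and 0.570 [0.443 to 0.697] from 60 and 21. The Stem libraries thus ran over nearly the whole scale, and their mean of 0.564 ± 0.416 (SD, n = 3) rests on libraries that do not resemble each other. In AbsPro no skipping read was found beside 72, 61 and 51 inclusion reads, so that inclusion was 1 in all 3 libraries, above every Stem library.

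In SecPDG the inclusion of the Spen 114-base exon was 1, 0.916, 0.952 and 0.940. In Tuft it was 0.883, 1, 1, 0.803 and 0.935, and in Enterocyte 1, 0.896, 1, 0.840 and 1. The means of these cell types, 0.952 ± 0.0352 (SD, n = 4), 0.924 ± 0.0838 (SD, n = 5) and 0.947 ± 0.0748 (SD, n = 5), lay 0.388, 0.360 and 0.383 above Stem, and all 3 overlapped Stem only through its second library. AbsPro lay 0.436 above Stem. Without the second Stem library the difference of AbsPro was 0.642 and without the first it was 0.227. EEC had 4 inclusion reads in 1 library and no read in the other, too few for a value.

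The Spen 69-base exon, which is annotated in Spen-202 alone, went the other way. Stem had no read on it in the first library, 0.914 from 36 inclusion and 2 skipping reads in the second and 0.587 from 29 and 12 in the third. In AbsPro only the third library had reads, and it kept the exon in 0.161 (13 and 40 reads). In SecPDG 3 libraries had enough reads, with 0.144, 0 and 0.478. The highest of these, from 14 and 9 reads, stayed below both Stem libraries.

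Enterocyte gave 0.228, 0.150 and 0.515 in 3 libraries for the Spen 69-base exon, and the 1 EEC library with reads gave 0 from 28 skipping reads. In Tuft 2 libraries gave 0.876 and 0.596, inside the range of Stem. Against the Stem mean of 0.751 ± 0.231 (SD, n = 2) the differences were -0.590 in AbsPro, -0.543 in SecPDG, -0.015 in Tuft, -0.453 in Enterocyte and -0.751 in EEC. The exon at chr4:141483725-141483825 follows the 114-base exon and precedes the 69-base exon, so that both Spen events share this neighbour but use different junctions.

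**Figure D1:**
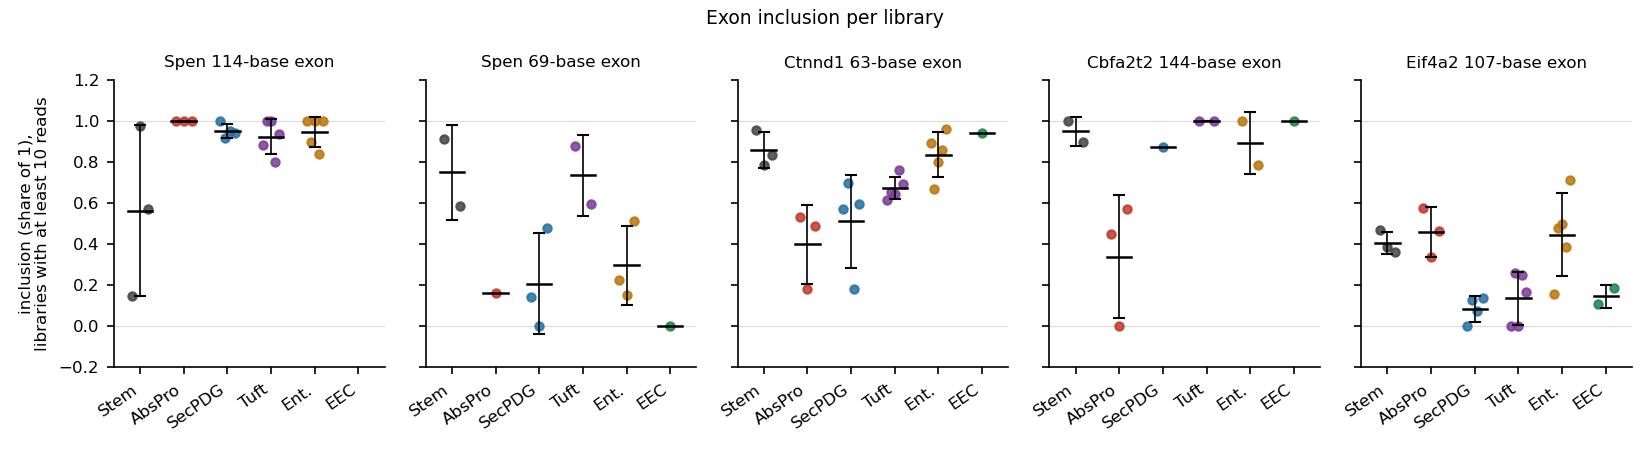
Inclusion (share of 1) of the exons that carry the switch, 1 point per library with at least 10 reads, by cell type, with the mean as a wide bar and the SD as whiskers (Ent. is Enterocyte). For the Spen 114-base exon the Stem points spread from 0.145 to 0.976 while AbsPro lies at 1, and for the Eif4a2 107-base exon SecPDG, Tuft and EEC lie below the 3 Stem points.

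The Ctnnd1 63-base exon, near the end of the coding sequence of p120 catenin, was kept most often in Stem, Enterocyte and EEC. Stem had 0.954 [0.909 to 0.981], 0.786 [0.705 to 0.854] and 0.837 [0.742 to 0.909], a mean of 0.859 ± 0.0863 (SD, n = 3). AbsPro had 0.531 from 100 inclusion and 54 skipping reads, 0.179 from 15 and 42, and 0.490 from 107 and 68. All 3 AbsPro libraries lay below the lowest Stem library, by 0.459 in the mean.

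SecPDG kept the Ctnnd1 63-base exon in 0.573, 0.696, 0.181 and 0.598, and Tuft in 0.618, 0.655, 0.643, 0.759 and 0.693. Every SecPDG and Tuft library lay below the lowest Stem library, the closest being the Tuft library at 0.759. The means were 0.512 ± 0.227 (SD, n = 4) and 0.674 ± 0.0550 (SD, n = 5), which is 0.347 and 0.185 below Stem. A single library stood far down in each progenitor sort, at 0.179 in AbsPro and 0.181 in SecPDG.

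In Enterocyte the inclusion of the Ctnnd1 63-base exon was 0.891, 0.669, 0.801, 0.859 and 0.963, which overlapped Stem, with a mean of 0.837 ± 0.111 (SD, n = 5). The 1 EEC library with reads had 0.943 from 216 and 8 reads. The order of the means was therefore EEC, Stem, Enterocyte, Tuft, SecPDG and AbsPro. EEC, Stem and Enterocyte overlapped each other, Enterocyte also overlapped Tuft and SecPDG, and SecPDG overlapped both Tuft and AbsPro.

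The Cbfa2t2 exon rested on few reads. For the form of 144 bases Stem had 25 inclusion reads and no skipping read in the first library and 22 against 1 in the third, and the second library had 4 inclusion reads and no value. AbsPro had 0.449 from 12 and 6 reads, 0 from 13 skipping reads, and 0.570 from 13 and 4. These 3 libraries lay below both Stem libraries with a value, at a mean of 0.340 ± 0.300 (SD, n = 3) against 0.95 ± 0.0710 (SD, n = 2), a difference of -0.610.

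Outside AbsPro the exon of Cbfa2t2 was mostly kept. SecPDG had a value in 1 library, 0.874 from 17 and 1 reads. Another of its libraries had 6 and 2 reads, too few for a value. For the form of 140 bases those reads correspond to 0.554, inside the AbsPro range of 0 to 0.574. Tuft had 34 and 10 inclusion reads with no skipping read in 2 libraries. Enterocyte had 1 from 15 inclusion reads and 0.786 from 9 and 1, and EEC had 12 inclusion reads and no skipping read in 1 library. The form of 140 bases shares nearly all of these reads and gave a difference of -0.606 between AbsPro and Stem.

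The Eif4a2 107-base exon, which brings in the early stop codon, was rarer in SecPDG, Tuft and EEC than in Stem, AbsPro and most Enterocyte libraries. Stem kept it in 0.467 [0.406 to 0.532], 0.388 [0.311 to 0.472] and 0.362 [0.318 to 0.409], a mean of 0.406 ± 0.0549 (SD, n = 3). AbsPro kept it in 0.578, 0.337 and 0.462, which overlapped Stem, and Enterocyte in 0.155, 0.480, 0.497, 0.388 and 0.714, which ran from below to above Stem. Their means were 0.459 ± 0.120 (SD, n = 3) and 0.447 ± 0.202 (SD, n = 5).

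SecPDG kept the Eif4a2 107-base exon in 0, 0.130, 0.0719 and 0.137, and the first of these libraries had 204 skipping reads and no inclusion read, which allows up to 0.00869. Tuft had 0, 0.259, 0, 0.250 and 0.167, where the 2 libraries at 0 had 45 and 27 skipping reads. EEC had 0.107 and 0.186. Every library of SecPDG, Tuft and EEC lay below the lowest Stem library, and the means were 0.321, 0.271 and 0.259 below Stem. The lowest Enterocyte library, at 0.155 from 13 and 34 reads, stood among them.

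Among events with at least 10 reads in every library of both cell types, inclusion did not overlap between AbsPro and Stem for 2.28% of 2502, between SecPDG and Stem for 1.19% of 2615, between Tuft and Stem for 0.749% of 2137, between Enterocyte and Stem for 1.13% of 2038 and between EEC and Stem for 7.38% of 474. Of the switch exons that met this, 2 of 3 did not overlap Stem in AbsPro (Spen 114-base and Ctnnd1 63-base), 2 of 3 in SecPDG and in Tuft (Ctnnd1 63-base and Eif4a2 107-base), 0 of 3 in Enterocyte and 1 of 1 in EEC (Eif4a2 107-base). These counts follow from the choice of the genes. The other exons of the 4 genes gave 0 of 4 in AbsPro, SecPDG, Tuft and Enterocyte and 0 of 2 in EEC, but these were what remained after the exons with the largest differences from Stem had been set apart, so nothing is read from that count.

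The events of other genes nearest to each exon in mean inclusion over the cell types were looked up among well covered events, by Euclidean distance over 5 or 6 cell types. Nearest to the Spen 114-base exon were exons of Ambra1 (distance 0.106), 1110038B12Rik (0.156) and 4833439L19Rik (0.162), and to the Spen 69-base exon Fgfr2 (0.490), Rab11fip1 (0.540) and Esrp1 (0.568). The Ctnnd1 63-base exon had Luc7l2 (0.208), Ctage5 (0.338) and Ciz1 (0.354). The Cbfa2t2 144-base exon had Gal3st1 (0.283), Rtn4 (0.370) and Chd2 (0.371), and the Eif4a2 107-base exon had Clmn (0.348), an exon of 110 bases of Esrp1 (0.387) and Fgfr1op2 (0.397). The same exon of Esrp1, an epithelial splicing regulator, was rank 3 for the Spen 69-base exon and rank 2 for the Eif4a2 107-base exon. Both distances lay well above the 0.106 of Ambra1, and a link to Esrp1 was not tested.

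The remaining 8 exons of Ctnnd1 and Eif4a2 were tested with edgeR's quasi-likelihood test on paired inclusion and skipping counts, wherever the mean reached 20 reads per library. They are the exons left after those with the largest differences from Stem in AbsPro and SecPDG (SecPDG alone for Eif4a2) were taken as the switch exons, which leans these tests towards no difference. Of 19 tests 0 passed an adjusted p of 0.05, 4 had an unadjusted p under 0.05, and a quasi-binomial model also called 0. Of these, 5 were comparisons that the choice had used and 14 were not, with 2 of the small unadjusted p in each, and nothing is read from the count of calls. All 4 with the small unadjusted p were the Ctnnd1 88-base exon. Over all events the share called was 0% in AbsPro (0 of 3210, with 97 at an unadjusted p under 0.05), 0.213% in SecPDG, 0.585% in Tuft, 0.226% in Enterocyte and 1.11% in EEC. The study, with rMATS at an FDR of 0.05, found its largest number of skipped exon changes between Stem and AbsPro. The shares here thus depend on the test and do not measure how many exons differ.

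The Ctnnd1 88-base exon, at chr2:84608329-84608416, is the coding exon just before the 63-base exon in the transcript. Its inclusion was 0.624 in the first Stem library, from 204 inclusion and 65 skipping reads, and 1 in both other Stem libraries. It was 1 in every library of the other 5 cell types, with 51 to 306 inclusion reads and no skipping read. The skipping was thus seen in 1 library of 22. In the comparisons that the choice had not used, the log2 odds ratio of inclusion against Stem was 6.87 in Tuft (adjusted p = 0.0666, edgeR), 6.89 in Enterocyte (0.154) and 7.00 in EEC (0.939). Its inclusion reads include the junction that skips the 63-base exon, so that the events are not independent. The same place in Stem, the first, held the low value of the Spen 114-base exon and the high value of the Ctnnd1 63-base exon, and it differed by over 0.2 from both other Stem places in 4.25% of 5315 events, against 3.76% and 4.31% for the second and the third.

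The Ctnnd1 289-base exon, at chr2:84624270-84624558, which is coding in part, had an intermediate inclusion in all but 1 library with a value. Stem had 0.288, 0.410 and 0.50, AbsPro 0.440, 0.458 and 0.392, and SecPDG 1, 0.503, 0.603 and 0.481. In SecPDG the mean of 0.647 ± 0.241 (SD, n = 4) rested on 1 library with 77 inclusion reads and no skipping read, and the groups overlapped. Tuft ran from 0.290 to 0.622 and Enterocyte from 0.445 to 0.606, and the 1 EEC library with reads had 0.773. The Ctnnd1 118-base exon, which is untranslated in every annotated transcript that holds it, had no inclusion read in any Stem library, beside 12, 11 and 1 skipping reads. In libraries with 10 or more reads it was kept in 0.646 and 0.556 in Enterocyte, 0.578 and 0.233 in Tuft and 0.390 in SecPDG, each from 10 to 15 reads, too few for the test. Below 10 reads, the fifth Tuft and the third SecPDG library had no inclusion read beside 8 skipping reads each, as in Stem. The other libraries of these cell types with so few reads had 1 to 4 inclusion reads each, where they had any read.

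Exons of Ctnnd1 of 151, 18 and 72 bases, each in 1 table, hardly varied. The 151-base exon was at 1 in Stem and between 0.907 and 1 in Tuft, and the 72-base exon at 1 in Stem and between 0.990 and 1 in SecPDG. The 18-base exon, of 6 codons, was at 0 in Stem and between 0 and 0.0780 in Tuft. In Eif4a2 the 140-base exon had means from 0.901 in Enterocyte to 1 in EEC, with 0.914 ± 0.0836 (SD, n = 3) in Stem, and the 169-base exon lay between 0.964 and 1 in the tables that hold it. The 169-base exon stands only in the tables of AbsPro and Enterocyte, so it has no value in the cell types where the 107-base exon was lowest.

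**Figure D2:**
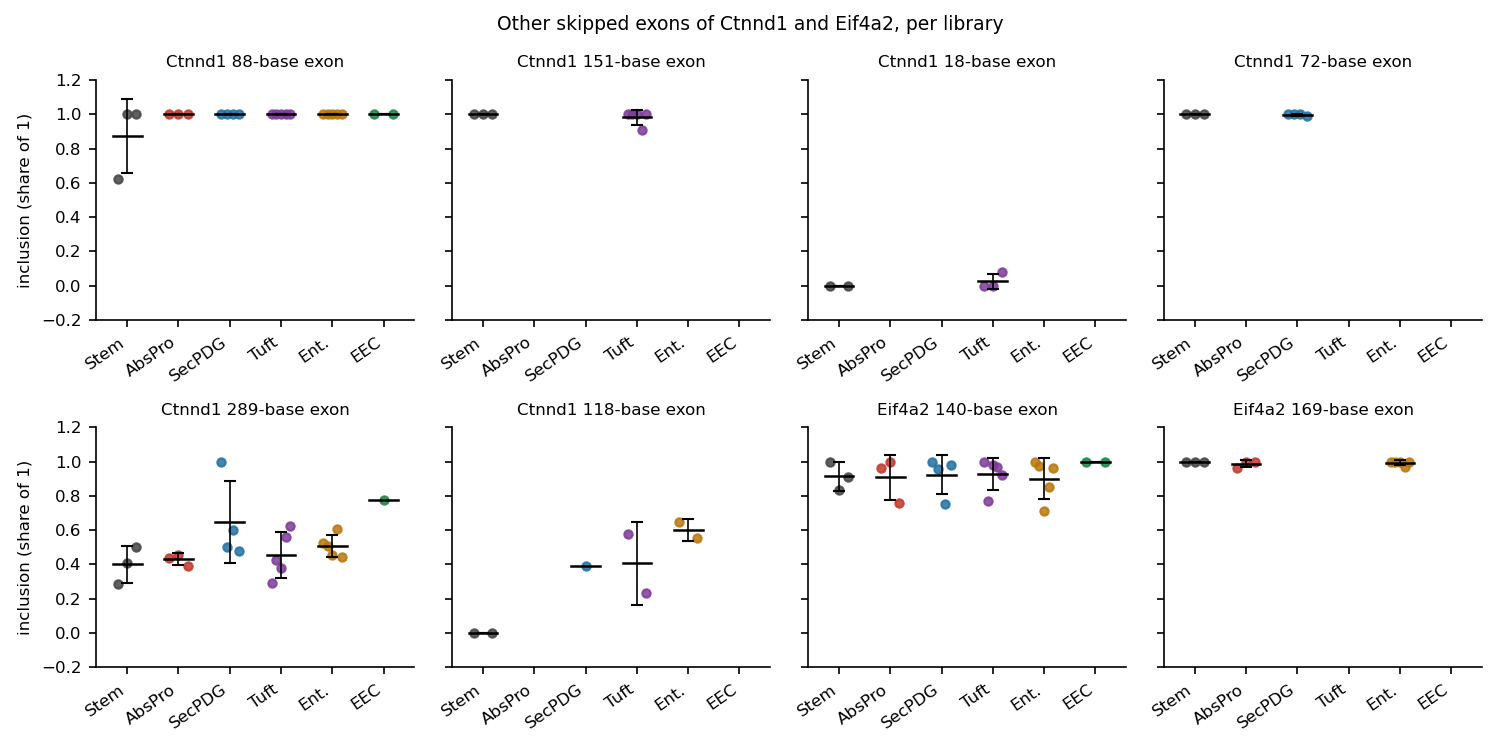
Inclusion (share of 1) of the 8 other skipped exons of Ctnnd1 and Eif4a2, 1 point per library with at least 10 reads, by cell type, with the mean as a wide bar and the SD as whiskers. A panel is empty for cell types whose table does not hold the event, and the Ctnnd1 88-base exon falls below 1 in 1 Stem library, at 0.624.

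Gene counts, which took no part in the choice, gave no called change for any of the 4 genes. Of 24 edgeR tests, 4 genes in 5 comparisons with Stem and AbsPro against SecPDG, 0 passed an adjusted p of 0.01 with a mean of at least 50 normalized counts. At an unadjusted p under 0.05 there were 2, and DESeq2 called 1. Over the 22781 genes tested the share called was 0.588% in AbsPro, 4.98% in SecPDG, 12.1% in Tuft, 22.2% in Enterocyte, 19.9% in EEC and 3.72% between AbsPro and SecPDG. These shares are too low to set beside the 4 genes, which all reached the mean of 50 that a call needs. Of the 13188 genes that reached it, 134, 1134, 2748, 5060, 4541 and 848 were called in the same order. In bulk RNA fewer cells of a type and less RNA per cell cannot be told apart.

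The Spen count was 5743, 5182 and 5017 normalized counts in Stem and 2605, 3030, 2361, 4761 and 3883 in Enterocyte, where every library lay below Stem. The log2 fold change was -0.67 (95% interval -1.32 to -0.02, adjusted p = 0.0654, edgeR), while the median over all genes with a mean of at least 50 normalized counts was -0.30 in that comparison. With DESeq2's size factors it was -0.16 (adjusted p = 0.422) and with library totals -0.25 (adjusted p = 0.177), beside medians of 0.35 and 0.24, so the size of this value depends on the scaling. Over all alternatives run its adjusted p ran from 0.000379 to 0.422. AbsPro, SecPDG and Tuft had means of 4813 ± 186 (SD, n = 3), 4391 ± 554 (SD, n = 4) and 4380 ± 613 (SD, n = 5), and their libraries overlapped Stem. The EEC libraries had 2683 and 8478, one below and one above all 3 Stem libraries. DESeq2 gave Spen in EEC a log2 fold change of 0.62 (adjusted p = 0.00436), against 0.08 (adjusted p = 0.911) from edgeR.

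Spen thus showed a change of inclusion of 0.436 between Stem and AbsPro beside a log2 fold change of the gene of -0.14 (95% interval -0.87 to 0.59). For Ctnnd1 in AbsPro the log2 fold change was 0.26 (-0.51 to 1.03) and in SecPDG 0.10 (-0.63 to 0.82). For Cbfa2t2 in AbsPro it was 0.11 (-0.56 to 0.78), and for Eif4a2 in SecPDG it was -0.14 (-0.90 to 0.61). The widest of these intervals reach close to 1 on the log2 scale, so that smaller changes of the gene count were not detectable here.

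The count of Ctnnd1 averaged 5499 ± 169 (SD, n = 3) in Stem. AbsPro averaged 6583 ± 1006 (SD, n = 3), and SecPDG 5884 ± 1452 (SD, n = 4). The means were lower in Tuft, at 4764 ± 640 (SD, n = 5), and Enterocyte, at 4374 ± 1551 (SD, n = 5), and the EEC libraries had 1645 and 5790. Cbfa2t2 had 500 ± 84.7 (SD, n = 3) in Stem, from 364 ± 89.7 (SD, n = 5) in Enterocyte to 643 ± 164 (SD, n = 4) in SecPDG in the others. Neighbours in the order of the means overlapped in all 4 genes.

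Eif4a2 had 2283, 2721 and 4665 normalized counts in Stem, so that its libraries differed more than those of Spen or Ctnnd1. In EEC it had 580 and 2618, of which the first lay below all Stem libraries (log2 fold change -0.98, 95% interval -1.93 to -0.02, adjusted p = 0.0832, edgeR). With DESeq2's size factors it was -0.42 (adjusted p = 0.28). In SecPDG, where the exon with the stop codon was rarest, the mean was 2918 ± 854 (SD, n = 4), and in Tuft it was 3485 ± 980 (SD, n = 5). Both overlapped Stem at 3223 ± 1268 (SD, n = 3).

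**Figure D3:**
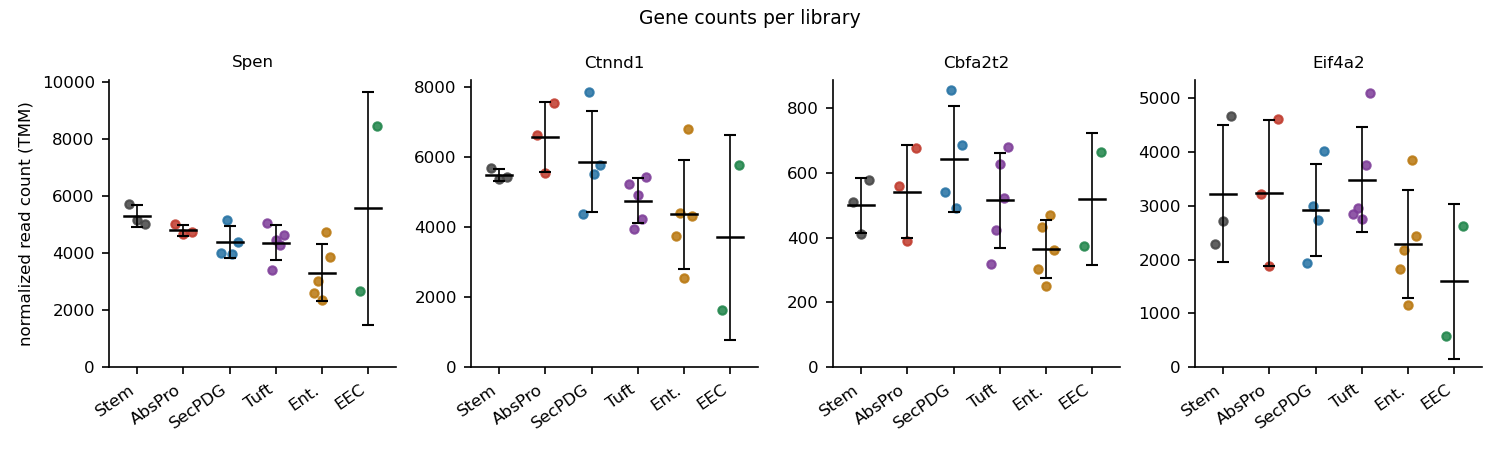
Normalized read counts of the 4 genes, 1 point per library, by cell type, with the mean as a wide bar and the SD as whiskers (Ent. is Enterocyte, and each panel has its own axis from 0). The 5 Enterocyte points of Spen lie below the 3 Stem points, and the 2 EEC points of Spen lie apart at 2683 and 8478.

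**Figure D4:**
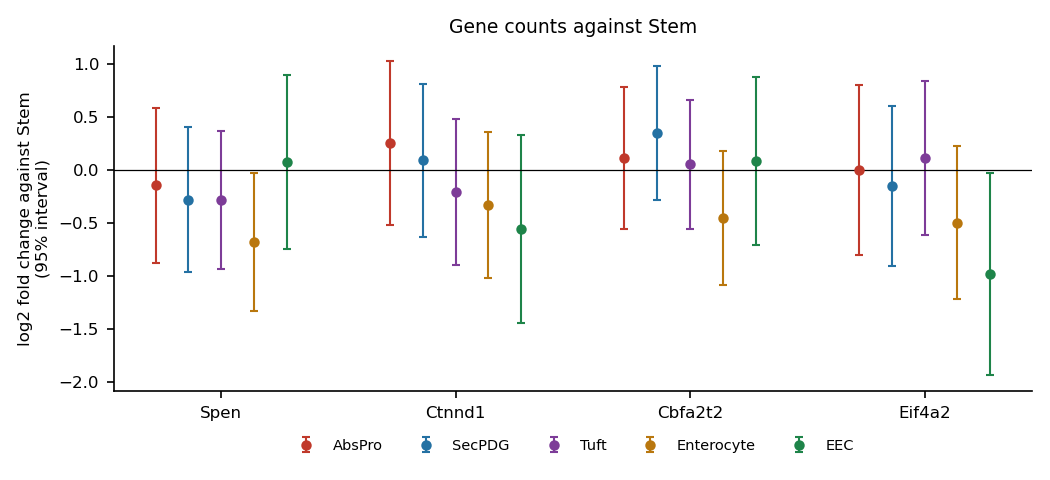
Log2 fold change of the gene count against Stem with its 95% interval from edgeR, for each gene and cell type. The intervals include 0 in all but Spen in Enterocyte and Eif4a2 in EEC.

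Over the 22 libraries and 13188 genes with a mean of at least 50 normalized counts, the log2 level of Spen was most like those of Rere (Pearson r = 0.954), Maml3 (0.951) and R3hdm2 (0.941). Ctnnd1 was most like Sptbn1 (0.965), Gak (0.965) and 2610507B11Rik (0.963), Cbfa2t2 most like Rev3l (0.872), Socs2 (0.849) and Yipf2 (0.848), and Eif4a2 most like Mff (0.938), Rapgef6 and Slk (both 0.934). These libraries share cell type and depth, so the correlations are descriptions.

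Genes of the same pathways, from fixed lists, are given next. A call needs a mean of at least 50 normalized counts, which 13188 of the 22781 genes reached. In AbsPro, SecPDG, Tuft, Enterocyte and EEC 134, 1134, 2748, 5060 and 4541 of those 13188 were called. That mean was reached by 32 of 34 splicing regulators and by 12 of 12 partners of Spen. For Ctnnd1, Eif4a2 and Cbfa2t2 it was 13 of 14, 17 of 17 and 10 of 11. The shares over all genes given above are thus too low to set beside the lists. Of 34 splicing regulators 0 were called in AbsPro (edgeR) and 1 in SecPDG, Khdrbs3, an RNA-binding protein of the STAR family (log2 fold change 1.52, adjusted p = 0.00129). In Tuft 2 were higher and 1 lower, in Enterocyte 4 and 16, and in EEC 7 and 12. The 34 regulators had a median log2 fold change of -0.16, -0.26, -0.54, -1.05 and -1.10 in AbsPro, SecPDG, Tuft, Enterocyte and EEC, against 0.04, -0.06, -0.09, -0.30 and -0.30 over all genes with a mean of at least 50 normalized counts.

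Counts in each direction depend on the scaling in the differentiated cell types. Of all calls 48.3% were higher in Enterocyte and 54.2% in EEC, against 75.6% and 77.3% with DESeq2's size factors, and the medians over all genes moved to 0.35 and 0.48. With those factors 4 splicing regulators were higher and 13 lower in Enterocyte and 8 and 12 in EEC, and the median of the list was -0.53 and -0.54.

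Rbfox3, a neuronal splicing regulator, was the splicing regulator with the largest increase in Tuft, Enterocyte and EEC, with means of 75.1, 123 and 265 normalized counts beside 0.898 in Stem. The largest decreases were in Srsf7 in Tuft (-1.27, adjusted p = 0.00148), Ptbp1 in Enterocyte (-1.87, adjusted p = 1.61e-05) and Mbnl3 in EEC (-4.88, adjusted p = 4.40e-08). Esrp1 and Rbfox2, whose motifs were searched, had log2 fold changes of 0.15 and 0.02 in AbsPro and 0.18 and 0.16 in SecPDG, neither of them called there.

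Of 12 partners of Spen in Notch repression 0 were called in AbsPro or SecPDG, 1 was lower in Tuft (Hdac3, -1.06), 6 in Enterocyte (most in Hdac2, -1.83) and 2 in EEC (most in Ctbp1, -1.59). Of 14 genes of the cadherin complex around Ctnnd1 0 were called in AbsPro, SecPDG or Tuft. In Enterocyte 2 were higher (most in Cdh2, 3.25) and 2 lower (most in Cbll1, -1.13), and in EEC 2 were higher (most in Cdh2, 4.91). With DESeq2's size factors these counts were 4 higher and 1 lower in Enterocyte and 2 and 1 in EEC, and Cbll1 was no longer called (-0.60, adjusted p = 0.0351). Of 17 genes of eIF4F and CCR4-NOT 0 were called in AbsPro or SecPDG, 1 was lower in Tuft (Eif4a1, the close paralogue of Eif4a2, -0.99), 8 in Enterocyte (most in Eif4b, -1.80) and 7 in EEC (most in Eif4b, -2.16).

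Of 11 relatives and partners of Cbfa2t2 0 were called in AbsPro and 1 in SecPDG, its paralogue Cbfa2t3, which rose from a mean of 204 to 6180 normalized counts (log2 fold change 4.94, adjusted p = 7.92e-13, edgeR). The other paralogue, Runx1t1, with a mean of 3.37 normalized counts in Stem, rose by 4.82 in Tuft, 5.95 in Enterocyte and 8.88 in EEC on the log2 scale. In Tuft 2 were higher and 2 lower (most in Tcf7, -1.54), in Enterocyte 2 and 4 (most in Tcf3, -2.22) and in EEC 2 and 2 (most in Tcf7, -1.77). With DESeq2's size factors the counts were 5 and 3 in Enterocyte and 4 and 1 in EEC, where Tcf7 was not called (-1.11, adjusted p = 0.109), and Cbfa2t3 was also called in AbsPro (1.77, adjusted p = 0.00149, against 1.82 and 0.0133 in the reported fit). Cbfa2t2 itself was not called in any of them.

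The share of the distal polyadenylation site, as DaPars estimated it per transcript, was tested with limma for 3 of the 4 genes, as the tables held no transcript of Spen. Of 17 tests 0 passed an adjusted p of 0.05 and 0 had an unadjusted p under 0.05, and no other tool was run. The tests hold both NM_001355065 and NM_001085449 of Ctnnd1, which had the same or nearly the same shares. Over all transcripts the share called was 0% in AbsPro (0 of 4976), 0.0237% in SecPDG, 0.0614% in Tuft and 0.0408% in Enterocyte. For Ctnnd1 (transcript NM_001355065) it was 0.55, 0.63 and 0.72 in Stem and 0.79, 0.86, 1, 0.78 and 0.87 in Tuft, where every library lay above Stem (difference in the log2 ratio 2.31, adjusted p = 0.854, limma). Without the third Tuft library, at 1, the difference was 1.42 (adjusted p = 0.793). The unadjusted p of this comparison depended on the form of the share. By limma it was 0.0811 as reported, 0.0320 with 0.05 added to each side and 0.00716 on the share itself. With libraries left out it ran from 0.00947 to 0.190. Over all alternatives the adjusted p ran from 0.655 to 0.928.

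Eif4a2 had transcripts with different last regions. For NM_001123037, whose region starts at the exon after the switch exon, the share was 0.27, 0.38 and 0.16 in Stem and 0.11, 0.01 and 0.19 in AbsPro, which overlapped (adjusted p = 0.922, limma). For NM_001123038 the region starts at the 107-base exon itself, so that its share is not independent of the inclusion. It was 0.47, 0.48 and 0.52 in Stem and 0.33, 0.89, 1 and 0.6 in SecPDG, on both sides of Stem (adjusted p = 0.847). Cbfa2t2 had a testable transcript only in AbsPro, with means of 0.375 in Stem (0.35 and 0.4) and 0.43 in AbsPro (0.14 and 0.72). The first library of each had no value, and the AbsPro libraries lay on both sides of Stem.

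**Figure D5:**
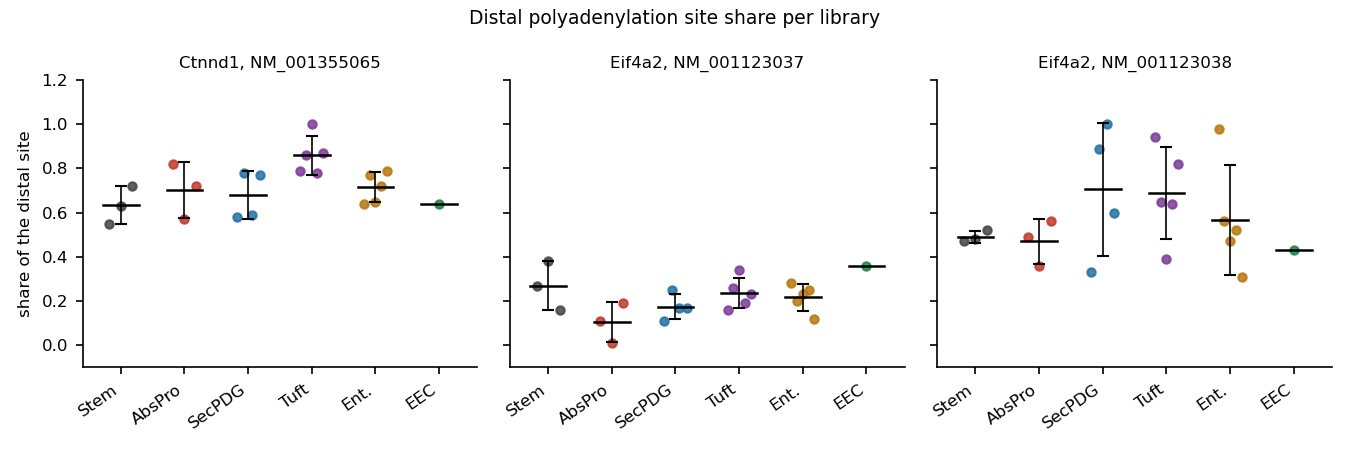
Share of the distal polyadenylation site of a Ctnnd1 transcript and a pair of Eif4a2 transcripts, 1 point per library, by cell type, with the mean as a wide bar and the SD as whiskers. The 5 Tuft points of Ctnnd1 lie above the 3 Stem points, and the SecPDG points of Eif4a2 NM_001123038 run from 0.33 to 1.

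Gene-assigned reads ran from 19900282 to 22462518 over the Stem libraries and from 16614350 to 22157285 over those of AbsPro. The ranges were 15314543 to 18628984 for SecPDG, 9930648 to 20892532 for Tuft, 5950619 to 12966128 for Enterocyte and 4122122 to 13132315 for EEC. Reads on no gene were 66.8% to 83.1% in Enterocyte and 64.5% to 89.7% in EEC, and 59.5% to 68.0% in 4 Tuft libraries, against 43.4% in the fifth Tuft library and 40.9% to 49.4% in Stem, AbsPro and SecPDG, and their part in the gene and list results of these cell types was not tested. Summed stem, tuft and enteroendocrine markers were each highest in the cell type of that label, while 6 enterocyte markers summed higher in AbsPro (72346 to 109951 normalized counts) than in Enterocyte (41122 to 67116). Their median log2 fold change against Stem had the other order, 2.17 in AbsPro and 2.57 in Enterocyte. With DESeq2's size factors it was 2.15 and 3.12, so the order depends on the measure. The same markers summed to 5709 in the EEC library with the lower counts of Spen, Ctnnd1 and Eif4a2 and to 103607 in the other, above every Enterocyte library, and their part in the EEC gene counts was not tested. Summed goblet markers were 17135 to 29585 in Stem and higher in every library of the other cell types. SecPDG had 641790 to 2935900, Tuft 653239 to 1056260, Enterocyte 233599 to 673677, AbsPro 79393 to 236949 and EEC 34198 to 60416. Summed enteroendocrine markers were 264 to 564 in Stem. Enterocyte had 7962 to 32438, Tuft 1435 to 27466, AbsPro 3736 to 18651 and SecPDG 1994 to 6021. The 5 immune markers summed to 1068 to 3127 in Tuft, 443 to 1059 in EEC and 223 to 430 in Enterocyte. In Stem, AbsPro and SecPDG they summed to 11.0 to 97.0. None of the goblet or immune markers was at 0 in Tuft. The part of the goblet, enteroendocrine and immune signal in the inclusion values was not tested in any cell type.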

How the data were processed

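RNA of 22 libraries was measured, each put in its cell type by its deposited label. The authors aligned reads to mm10 with STAR 2.5.2a and deposited raw counts per gene symbol, made with HTSeq 0.6.1p1. The deposited skipped exon tables, made by the authors with rMATS, hold inclusion and skipping read counts from junctions and exons, with the effective length of each form. The deposited DaPars tables hold a fraction, the distal site share, rounded by the authors. The deposited comparison columns (differences, p-values and FDR, and all MAJIQ values) were not used, and neither were the proteomics.

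Genes were tested with edgeR 4.0.16 in R 4.3.3, in 1 quasi-likelihood fit of all libraries after filterByExpr and TMM, with Benjamini-Hochberg adjustment, called where the adjusted p was below 0.01 and normalized counts averaged at least 50, as in the study, which used DESeq2. The 5 entries that name no gene were left out of library sizes (40.9% to 89.7% of reads fell on no feature). Other exons were tested with edgeR per table with the library as a block and quasi-Poisson variance, a choice made on simulated data, and distal shares by limma 3.58.1 as log2 odds (0.01 added to each side), both called at an adjusted p under 0.05. DESeq2 1.42.0 was an alternative. Scripts were tested on simulated data. Python 3.11.15, numpy 2.4.6, scipy 1.17.1 and matplotlib 3.10.9 served for inclusion and figures. The p-values set a difference between cell types against the spread between libraries.

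The 4 genes, the lists and the tests were chosen with earlier results of these data known. The switch exon was the one with the largest summed difference from Stem in the tables where the study shows the gene. For Spen that is the 69-base exon (1.13, against 0.824 for the 114-base exon), although the inclusion pattern the study describes for Spen is that of the 114-base exon, so both were described and neither tested. Named genes are the 4 members with all their events. From each list they are the genes called in AbsPro or SecPDG and the called gene with the largest increase and decrease per comparison, and for likeness the 3 nearest genes or events. Esrp1 and Rbfox2 were named beside their motifs after their values were seen. The lists were splicing regulators, partners of each gene, and stem, enterocyte, goblet, tuft, enteroendocrine and immune markers.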

Additional observations from a re-analysis of the deposited data

Results flagged for a closer look

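In 45 groups of 4 or 5 libraries the lowest and the highest value were compared with the nearest other by Dixon's test, which chance alone passes in about 1 of 20 groups, and 3 passed. The Ctnnd1 151-base exon had 1 Tuft library at 0.907, with the other 4 at 1. The Ctnnd1 72-base exon had 1 SecPDG library at 0.990, with the other 3 at 1. The Eif4a2 169-base exon had 1 Enterocyte library at 0.969, with the other 4 at 1. In each the other libraries were tied at 1, so that 1 to 3 skipping reads set the outcome and the rate of 1 in 20 does not apply to them.

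The mean of the Cbfa2t2 144-base exon differed from the Stem mean by -0.610 in AbsPro (3 libraries) and by 0.050 in Tuft (2 libraries, both at 1). The Tuft libraries equal the first Stem library, which is also at 1, and without the third Stem library, which has 1 skipping read, the Tuft difference was 0. The difference between AbsPro and Tuft was not tested.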

How the results depend on the processing

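Of the gene tests of the 4 genes, 0 were called in the reported fit, 1 with DESeq2 (Spen in EEC) and 0 to 2 when each library was left out in turn. Without EEC replicate 2, Ctnnd1 (-1.74) and Eif4a2 (-2.48) were called in EEC, from the 1 remaining library, which has 4122122 reads on genes and is assumed to vary like the other cell types, and Spen was called in Enterocyte without AbsPro replicate 1 or 3, Tuft replicate 4 or EEC replicate 1 (-0.86 to -0.87), and ran from -0.93 to -0.57 with libraries left out and to -0.16 with DESeq2's size factors. Of the other exons 0 were called, and 0 to 3 when each library was left out. Without the second Stem library 2 tests were called (Ctnnd1 88-base exon, Tuft adjusted p = 0.00449 and Enterocyte 0.0222), and without the third 3 (the same exon in Tuft 0.000861, Enterocyte 0.00234 and SecPDG 0.0406), all by edgeR. Over all alternatives that tested it, the adjusted p of this exon ran from 0.000861 to 0.893 in Tuft. All 65 of its skipping reads lie in the first Stem library. Without that library the exon had no test, so these calls rest on it. Gene changes near 0 turned sign. Ctnnd1 in SecPDG was -0.16 when scaled by library totals and -0.00063 with a replicate block, and ran from -0.0088 to 0.21 with libraries left out. Spen in EEC was -0.015 with no filter, -0.0097 with the replicate block and -0.99 to 0.51 with libraries left out. With libraries left out Cbfa2t2 in AbsPro ran from -0.0043 to 0.30 and Eif4a2 in SecPDG from -0.34 to 0.22. The cause was not tested. Deviations from the cell type means correlated at a median of 0.002 over 44 same-numbered pairs of libraries, 14 above 0.1. Over 154 pairs with other numbers the median was 0.007, with 46 above 0.1. Such deviations sum to 0 within a cell type, which draws the medians towards 0. Whether some libraries of different cell types share mice was thus not settled, and the fit with a replicate block called 0. No distal share was called under any alternative run. Of 259 recomputed inclusion differences 256 moved by less than 1 SD between libraries. Leaving 1 library out of a few can hardly move a mean that far, so no stability is read from this count. The Spen 114-base exon in AbsPro ran from 0.227 to 0.642 with libraries left out and still counted as unmoved. With counts pooled Cbfa2t2 in SecPDG was -0.197 (144-base) and -0.190 (140-base) and in Enterocyte -0.025 (140-base). Depth limits Cbfa2t2, Spen in EEC and the Spen 69-base exon, where most libraries had few reads.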
